A study of Mus musculus with 44 samples.

Results

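At 15 months, 40 of 13009 hippocampal loci stood apart from both 5 and 18 months in the same direction, 18 higher and 22 lower, in mice that were sampled as separate animals at each age. The higher ones included Gabra2, which encodes one of the GABA-A receptor subunits, Ndn, the imprinted neuronal gene necdin, and Ogn, an extracellular matrix proteoglycan. The lower ones included Cort, a neuropeptide of inhibitory interneurons, and a locus with copies of Tmem254, a predicted membrane protein. Sequencing lane was tied to age. With lane added to the model, 8 of the 40 still stood apart from both ages, the Tmem254 locus among them, but Gabra2, Ndn, Ogn and Cort did not. That fit separates lane from age through few libraries, so its calls rest on few mice. At 10 loci, most of them without a gene name, every 15-month library lay close to 0 FPKM while most libraries of the other ages did not.

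The 15-month libraries are 16 of the 44 in the series. They are all libraries that the labels put at that age, 8 in 15M-MR and 8 in 15M-CD. They were set against the equal-weight mean of 5 months (7 libraries in 5M-MR, 6 in 5M-CD) and 18 months (7 in 18M-MR, 8 in 18M-CD), with diet kept as a factor. All mice were C57BL/6J, the strain of the mouse reference genome, and each library is total RNA from the hippocampus of 1 mouse, sequenced on BGI-500 instruments. MR is read from the series title as methionine restriction, a diet low in an essential amino acid, and CD as its control diet. The labels used here do not give the sex, litter, supplier or sampling date of the mice, and no mouse was followed over time. A return at 18 months means that other mice of that age differed from the 15-month level towards the 5-month level, fully or partly.

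The hippocampus holds excitatory cells of the dentate gyrus and the CA fields, inhibitory interneurons that signal with GABA and neuropeptides, and glia. Expression in the ageing brain is usually described as a drift in one direction, such as rising glial and immune transcripts and falling synaptic ones, and a level that leaves and comes back is a different pattern. Within inbred mice, substrains that have been bred apart also differ at some loci by deletions, duplications or retroviral insertions, and such loci can be switched on or off between mice of nearly the same genome. C57BL/6J is known for an intronic deletion that lowers Gabra2 and for a deletion within Nnt, a mitochondrial transhydrogenase.

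The values are FPKM, fragments scaled to transcript length and library size, as deposited by the authors, and the depth of each library is unknown. The FPKM sum was 216975 to 282327 at 15 months, against 213116 to 265126 at 5 months and 222091 to 266577 at 18 months. Markers of the dentate gyrus, 8 loci, summed to 41.8 to 125.0 FPKM at 15 months, and those of the CA fields, 10 loci, to 182.5 to 300.4 FPKM, so the labelled tissue was present in each of these libraries. Choroid plexus markers, 6 loci, ranged from 24.2 to 3537 FPKM among the 15-month libraries and as widely at the other ages. In bulk tissue, fewer cells of a type and less RNA per cell cannot be told apart. Sequencing lane, which the run names give, was tied to age: all 8 15M-MR libraries came from lane 4, and 15M-CD came from lane 3 (5 libraries) and lane 4 (3). Only 1 library of another age, from 5M-CD, was run in lane 4, and 7 libraries of 18 months were run in lane 3. None of the libraries at 15 months was in lanes 1 or 2. At 18 months, 2 libraries stood apart from their group at the loci described here, 18M-CD 3 and 18M-MR 1, which lay on the 15-month side at 34 and 27 of the 40 loci, against 2 to 14 of 40 in the other 18-month libraries. A library is said to lie on that side of a locus where its log2(FPKM + 1) is nearer to the 15-month mean than to the 5-month mean. Results are given with both, and without them where this moved a result.

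The comparison first asked which loci differed at 15 months from the mean of the other ages. The change was tested with limma on log2(FPKM + 1), and differences are on that scale, which understates changes of loci with low values. Of 13009 loci tested, 229 passed an adjusted p of 0.05 (1.76%), 149 higher (1.15%) and 80 lower (0.615%). After quantile normalization of the libraries, 278 passed, 147 higher and 131 lower. Without 18M-MR 1 alone, 371 passed. This contrast also passes where a locus had changed by 15 months and stayed changed, so a locus counted as leaving and returning only where 15 against 5 months and 15 against 18 months both passed with the same sign. Between 15 and 5 months 2551 loci passed (19.6%), 1649 higher (12.7%) and 902 lower (6.93%), with 35.3% at an unadjusted p under 0.05. With lane as a factor 193 passed that pair, 65 higher and 128 lower. Between 15 and 18 months 52 passed (0.4%), and between 18 and 5 months 4669 (35.9%). The 15-against-18 count was 46 after quantile normalization, 18 higher and 28 lower, against 26 and 26 without it, and it was 81 without 18M-CD 3 and 119 without 18M-MR 4. The 40 loci that met the rule (0.307%) made up 76.9% of those that passed between 15 and 18 months and 1.57% of those that passed between 15 and 5 months. Both pairs use the same 15-month libraries, so they are not independent of each other. The median difference over all loci was 0.05 for 15 months against the mean of the others and 0.05 against 18 months.

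**Figure D1:**
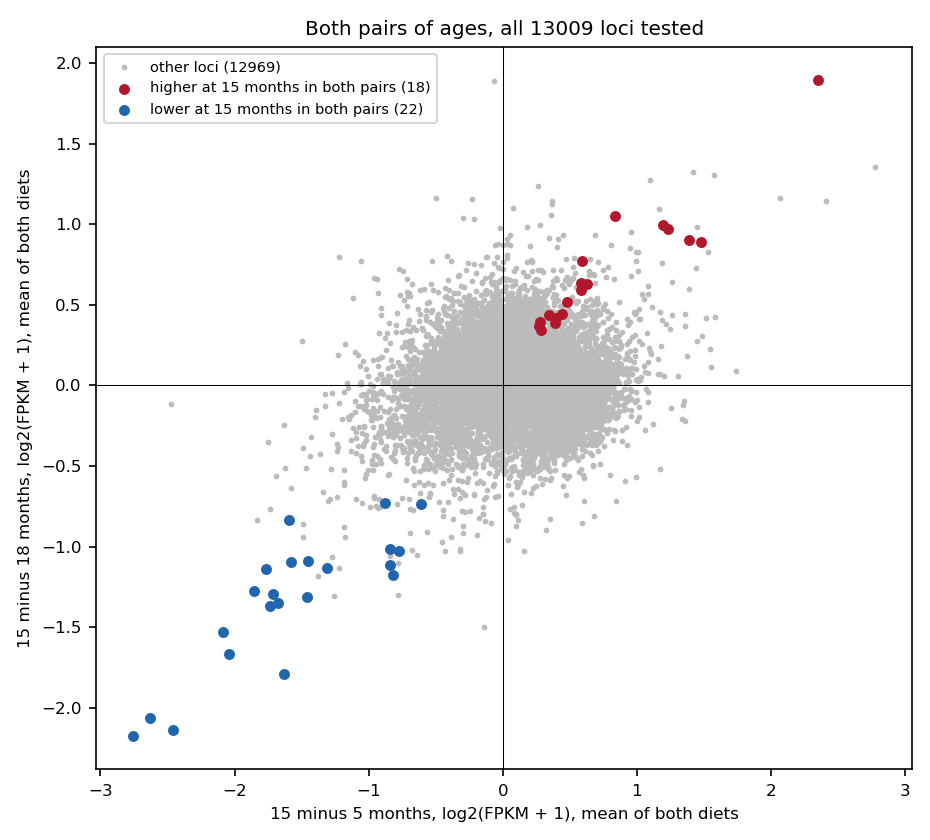
Difference of 15 minus 5 months (horizontal axis) and of 15 minus 18 months (vertical axis) in log2(FPKM + 1), averaged over both diets, with 1 point for each of the 13009 loci tested. The 18 red and 22 blue points are the loci that passed both pairs in the same direction, and the lower ones reach further from 0 than the higher ones, apart from 1 locus at the upper right.

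How far the 18-month level had come back was expressed as the share of the 15-minus-5 difference that was absent between 18 and 5 months. Its median over the 40 loci was 88.5%, with a range of 52.1% to 143%. The 95% interval of the 18-against-5 difference held 0 at 31 of the 40. That test was passed by 6 of the 40, against 35.9% of all loci. At 17 of the 40 loci the 15-month and 5-month libraries did not overlap, and at 3 the 15-month and 18-month libraries did not, against 0.269% and 0.0231% of all loci. The 40 were chosen for differing from both ages in the same direction, which in large part fixes these counts and the share that came back. Nothing is read from either. By name, 18 of the 40 loci carried at least 1 established gene symbol (13 higher, 5 lower), 8 had only predicted or clone names, and 14 had no symbol (3 higher, 11 lower). Loci without a symbol were 35.0% of the 40 and 23.5% of all loci tested. The call held in each of 44 fits that left out 1 library for 30 of the 40.

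Among the genes of neurons, Gabra2, which encodes the alpha-2 subunit of the GABA-A receptor, the main inhibitory receptor of the brain, showed a gap at 15 months. Its lowest, median and highest values were 3.50, 4.77 and 7.09 FPKM at 5 months, 7.46, 15.2 and 22.2 FPKM at 15 months, and 1.76, 7.76 and 16.3 FPKM at 18 months. No 15-month library overlapped those of 5 months, whereas 5 of 15 libraries at 18 months lay on the 15-month side, 18M-CD 3 and 18M-MR 1 among them. The difference was 1.14 ± 0.17 (SE; adjusted p = 1.8e-05), and between 18 and 5 months it was 0.48 with a 95% interval of 0.07 to 0.90. Of the 10 GABA-A receptor subunits tested, only Gabra2 passed the 15-month contrast, in the fit without lane. The neighbouring subunit genes on chromosome 5 gave differences of -0.37 ± 0.25 for Gabra4, 0.30 ± 0.16 for Gabrb1 and 0.12 ± 0.18 for Gabrg1. On other chromosomes, Gabra3 had a difference of -0.99 ± 0.36 (adjusted p = 0.15), Gabrb2 of 0.24 ± 0.10 (adjusted p = 0.23) and Gabrd of -0.19 ± 0.12 (adjusted p = 0.43).

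Ndn, which encodes necdin, a protein of postmitotic neurons expressed from the paternal allele only, had the highest FPKM of the 40 loci. Its lowest, median and highest values were 58.8, 83.2 and 101.9 FPKM at 5 months, 96.1, 121.7 and 165.8 FPKM at 15 months, and 42.6, 80.5 and 155.8 FPKM at 18 months. The groups overlapped at their edges: 15 of 16 libraries at 15 months, 2 of 13 at 5 months and 2 of 15 at 18 months lay on the 15-month side. Ndn rose by 0.61 ± 0.10 (adjusted p = 0.00016), and the 18-against-5 difference was -0.06 with an interval of -0.30 to 0.19. Khdrbs3, an RNA-binding protein that sets alternative splicing of neurexins at synapses, had a median of 19.6 FPKM at 5 months, 30.2 at 15 months and 20.9 at 18 months. It rose by 0.44 ± 0.08 (adjusted p = 0.0017), with ranges of 18.2 to 31.5 FPKM at 5 months, 21.0 to 38.2 FPKM at 15 months and 12.9 to 27.5 FPKM at 18 months that overlapped. Gfra4, a receptor of the neurotrophic factor persephin that shares its locus with the microRNA gene Mir6973b, had medians of 34.7, 40.7 and 34.0 FPKM at 5, 15 and 18 months and rose by 0.31 ± 0.07 (adjusted p = 0.011).

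**Figure D2:**
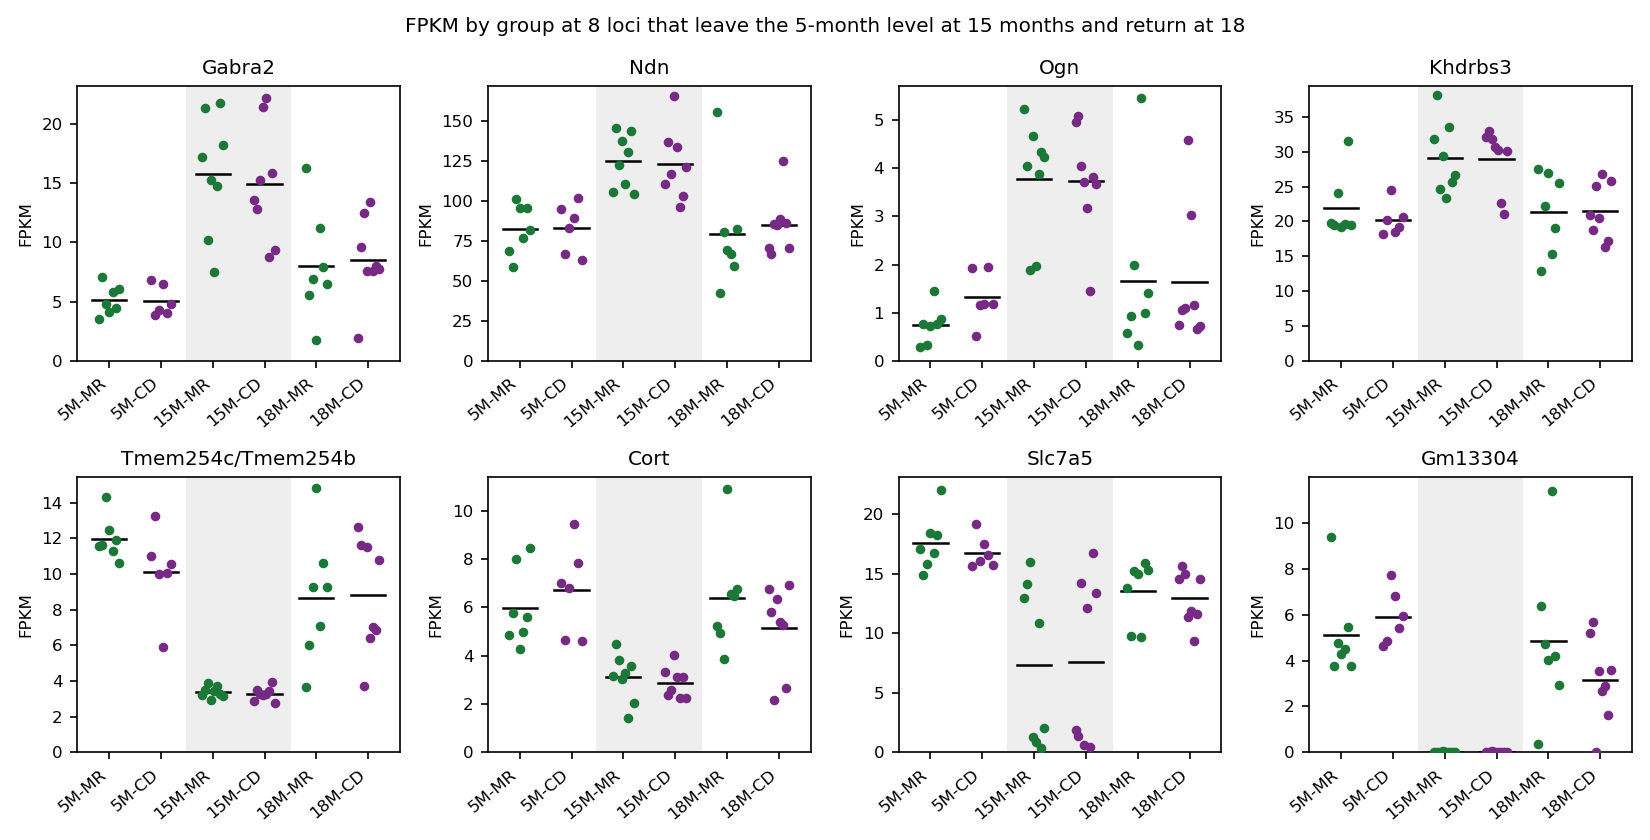
FPKM in each library (points, green for MR and purple for CD) of 6 groups, with the group mean as a black line, at 8 loci that left the 5-month level at 15 months and returned at 18. The 15-month groups, shaded, are raised in the upper row and lowered in the lower row, both diets move alike, and Slc7a5 falls into separate high and low libraries within each 15-month group.

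Other higher genes have general cellular roles. Pik3c3, the lipid kinase Vps34 that starts autophagosome formation and endosomal sorting, had medians of 4.48, 5.93 and 3.95 FPKM at 5, 15 and 18 months and rose by 0.34 ± 0.08 (adjusted p = 0.020). Rnf128, a membrane-anchored E3 ubiquitin ligase, had medians of 6.67, 7.83 and 5.81 FPKM and rose by 0.32 ± 0.07 (adjusted p = 0.0073). Lhpp, a protein histidine phosphatase, had medians of 8.36, 10.99 and 8.30 FPKM and rose by 0.39 ± 0.07 (adjusted p = 0.0016). Ogfrl1, named for its likeness to the opioid growth factor receptor, had medians of 45.8, 59.1 and 43.1 FPKM and rose by 0.41 ± 0.08 (adjusted p = 0.0018). These 4 genes overlapped between 15 months and each other age, with 12 to 15 of 16 libraries at 15 months on the higher side. Ankrd29, which encodes ankyrin repeats, and Ostf1, an SH3-domain protein first described for its effect on osteoclasts, rose by 0.63 ± 0.13 and 0.39 ± 0.09. In fits that left out 1 library, at least 1 of both pairs missed the threshold in 24 of 44 for Pik3c3, 27 of 44 for Gfra4/Mir6973b, 14 of 44 for Ostf1 and 13 of 44 for Ankrd29, with adjusted p-values of up to 0.099.

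Ogn, the small leucine-rich proteoglycan osteoglycin of connective tissue, was low at every age. Its lowest, median and highest values were 0.29, 0.88 and 1.96 FPKM at 5 months, 1.45, 3.97 and 5.23 FPKM at 15 months, and 0.32, 1.06 and 5.45 FPKM at 18 months. It rose by 1.10 ± 0.16 (adjusted p = 1.7e-05), with 13 of 16 libraries at 15 months, 0 of 13 at 5 months and 3 of 15 at 18 months on the 15-month side. Ogn is also a marker of the meninges, and of the 7 meningeal markers tested it was the only one to pass. Dcn, Igf2 and Slc6a13, which define that tissue, gave differences of 0.23, -0.01 and 0.35 with adjusted p-values of 0.74, 0.99 and 0.33. The 7 markers summed to 186.9 to 1135 FPKM at 15 months, against 226.5 to 573.1 at 5 months and 185.3 to 567.5 at 18 months, and the part of meningeal tissue in the Ogn difference was not tested.

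Some higher loci call for care in what was measured. Lsm2, a subunit of the ring that binds the U6 spliceosomal RNA, is used by every cell, yet it was listed at 0 in 7 of 13 libraries at 5 months, 3 of 16 at 15 months and 9 of 15 at 18 months, with highest values of 2.10, 3.33 and 2.30 FPKM. It passed both pairs (adjusted p of 0.019 against 5 and 0.031 against 18 months), but in 11 of 44 fits without 1 library it did not. Dynlt1-ps1 is a processed pseudogene on chromosome 6 (chr6:135349408-135349749, minus strand, GRCm38) that resembles a dynein light chain, so reads of its parent genes may be counted at it. Its medians were 1.75, 3.37 and 2.03 FPKM at 5, 15 and 18 months, a rise of 0.59 ± 0.10 (adjusted p = 0.00029). Of the higher loci with no established name, MSTRG.43220 had no symbol and Gm26644 is a long intergenic RNA on chromosome 19. MSTRG.43220 was listed at 0 in 10 of 13 libraries at 5 months, where its highest value was 0.14 FPKM, reached 1.26 to 7.94 FPKM in all 16 libraries at 15 months, and lay at 1 FPKM or more in 3 of 15 libraries at 18 months, 18M-CD 3, 18M-CD 6 and 18M-MR 1. Its difference was 2.12 ± 0.20 (adjusted p = 4.5e-10). Gm26644 rose by 0.68 ± 0.14 (adjusted p = 0.0055), with medians of 5.55, 9.42 and 5.04 FPKM.

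Cort, which encodes cortistatin, a peptide related to somatostatin that is made by a subset of cortical and hippocampal interneurons, fell at 15 months. Its lowest, median and highest values were 4.29, 5.75 and 9.43 FPKM at 5 months, 1.41, 3.12 and 4.47 FPKM at 15 months, and 2.14, 5.81 and 10.9 FPKM at 18 months. On the lower side lay 15 of 16 libraries at 15 months, 0 of 13 at 5 months and 3 of 15 at 18 months. The difference was -0.80 ± 0.12 (adjusted p = 2.2e-05). Of 15 interneuron markers tested, 2 passed, both lower, beside 0.615% of all loci that passed as lower. They were Cort and Npy, neuropeptide Y, which fell by 0.42 on the log2 scale (adjusted p = 0.016). Npy medians were 89.0, 75.7 and 97.5 FPKM at 5, 15 and 18 months, and it missed the 15-against-18 threshold with an adjusted p of 0.056. Npy passed that pair without 18M-MR 1 and 18M-CD 3 (adjusted p = 0.012) and after quantile normalization (adjusted p = 0.0032). With lane as a factor its 15-month difference was -0.21 ± 0.19 (adjusted p = 0.68) and that against 18 months was -0.23 (adjusted p = 0.50). The 15 markers summed to 726.3 to 1355 FPKM at 15 months, against 786.1 to 1330 at 5 months and 779.0 to 1365 at 18 months. The median difference of the list was -0.10 beside 0.05 over all loci, and 6 of the 15 differences were above 0, the highest at 0.43.

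Slc7a5, the carrier LAT1 that moves leucine, methionine and other large neutral amino acids into cells and across the blood-brain barrier, did not fall evenly. At 15 months 8 of 16 libraries had 0.37 to 2.02 FPKM, and the other 8 had 10.8 to 16.8 FPKM. The low libraries were 4 of 8 in 15M-MR and 4 of 8 in 15M-CD, 3 of them in lane 3 and the others in lane 4. Every library of 5 months (14.9 to 22.0 FPKM) and of 18 months (9.40 to 15.9 FPKM) was at the high level, 18M-CD 3 and 18M-MR 1 included. The difference was -1.55 ± 0.29 (adjusted p = 0.0013), and a mean describes neither set of libraries. Whether the split lies in the RNA or in how fragments were assembled and assigned in the deposited table was not tested. Against 18 months the adjusted p was 0.046, and the call was lost in 32 of 44 fits that left out 1 library.

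Tmem254c and Tmem254b, neighbouring copies of one gene on chromosome 14 that the authors' table joins in 1 locus, had the smallest adjusted p among loci with an established gene name. Lowest, median and highest values were 5.89, 11.3 and 14.3 FPKM at 5 months, 2.79, 3.29 and 3.94 FPKM at 15 months, and 3.68, 9.26 and 14.8 FPKM at 18 months. The 15-month libraries lay below every 5-month library, and of the 18-month libraries only 18M-CD 3 and 18M-MR 1 reached into their range, while 18M-MR 2 was also nearer to the 15-month mean. The difference was -1.27 ± 0.11 (adjusted p = 7.8e-11). The third copy, Tmem254a, had medians of 0.74, 0 and 0 FPKM at 5, 15 and 18 months and a difference of -0.70 ± 0.27 (adjusted p = 0.17). The promoters are shown to document how alike the copies are: from 250 bases before to 50 after the annotated start, Tmem254a (chr14:25927623-25927922) and Tmem254c (chr14:26067376-26067675) are identical over 300 bases, and both share a run of 284 bases with Tmem254b (chr14:26206976-26207275). All are on the minus strand of RefSeq's GRCm38.p6, and capitals mark the shared run.
Tmem254a and Tmem254c: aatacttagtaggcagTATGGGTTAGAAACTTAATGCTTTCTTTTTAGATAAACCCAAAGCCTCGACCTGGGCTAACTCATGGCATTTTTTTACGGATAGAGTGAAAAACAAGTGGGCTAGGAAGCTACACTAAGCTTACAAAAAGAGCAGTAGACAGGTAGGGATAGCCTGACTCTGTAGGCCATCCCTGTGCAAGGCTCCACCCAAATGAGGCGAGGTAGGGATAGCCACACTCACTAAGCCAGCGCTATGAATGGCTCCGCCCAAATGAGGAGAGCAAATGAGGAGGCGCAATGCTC
Tmem254b: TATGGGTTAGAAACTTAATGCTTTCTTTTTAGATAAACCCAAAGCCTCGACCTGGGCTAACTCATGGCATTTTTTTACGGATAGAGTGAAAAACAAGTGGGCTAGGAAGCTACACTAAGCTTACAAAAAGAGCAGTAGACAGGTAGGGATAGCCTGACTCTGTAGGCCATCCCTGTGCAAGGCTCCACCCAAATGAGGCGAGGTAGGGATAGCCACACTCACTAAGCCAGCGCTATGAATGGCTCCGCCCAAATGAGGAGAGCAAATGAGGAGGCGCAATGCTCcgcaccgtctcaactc
The printed sequences share every base of that run and are shifted against each other by the place of the annotated start. Most of these bases lie before the transcript and the transcripts were not compared, so how the authors' counting divided reads between the copies is not known, and the levels of single copies are uncertain.

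Lower loci with a symbol lay in a block of duplicated genes on chromosome 4. Gm13304 (chr4:42114817-42115917, plus strand, GRCm38), annotated as protein coding, had lowest, median and highest values of 3.75, 4.84 and 9.37 FPKM at 5 months, 0.0086, 0.025 and 0.059 FPKM at 15 months, and 0.028, 3.59 and 11.4 FPKM at 18 months. All 16 libraries at 15 months were below every 5-month library, and at 18 months 18M-CD 3 and 18M-MR 1 were on the 15-month side. The difference was -2.34 ± 0.18 (adjusted p = 6.5e-13). Its 300-base promoter stands word for word at Gm10591 (chr4:42611873-42612172) and with 299 of 300 bases in common at Ccl21d, one of the mouse copies of the lymphoid chemokine CCL21. It is shown to let the copies be recognised, from the plus strand of RefSeq's GRCm38.p6 (chr4:42114537-42114836).
Gm13304 and Gm10591: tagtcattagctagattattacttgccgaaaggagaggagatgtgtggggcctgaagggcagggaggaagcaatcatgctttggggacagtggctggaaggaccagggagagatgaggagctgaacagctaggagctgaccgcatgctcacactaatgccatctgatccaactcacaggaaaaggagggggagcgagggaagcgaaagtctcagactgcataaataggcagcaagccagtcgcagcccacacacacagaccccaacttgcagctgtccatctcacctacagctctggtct
Gm10591 belongs to another locus of the same block, which joins it with Gm2163, Ccl21b and 5 further names, and this locus fell by 0.68 on the log2 scale (adjusted p = 0.011), with medians of 1.41, 0.82 and 1.65 FPKM at 5, 15 and 18 months. It was lost in 17 of 44 fits without 1 library. The numbers that StringTie gave to loci ascend along a chromosome for 88.4% of neighbouring named loci. Of the 40 loci, 8 fall among the 11 tested loci numbered from 9167 to 9193, 4 of them without a symbol. Both ends of this range are themselves among the 40, so the share follows in part from how the range was drawn. The loci without a symbol were not placed on the genome. Of 41 symbols on the 40 loci, 17 have a promoter in the RefSeq table, and 3 of these (Tmem254c, Gm13304 and Gm10591) have a promoter that stands under another symbol too. The share of all 27025 symbols in that table with such a copy is 1.81%.

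On the X chromosome, the locus that joins Mid1, an E3 ubiquitin ligase whose gene crosses the border of the pseudoautosomal region in mice, with Erdr1, a gene of that region, differed by -0.996 (adjusted p = 0.0071). Its medians were 5.53, 2.24 and 6.31 FPKM at 5, 15 and 18 months, and its ranges of 0.89 to 8.00 FPKM at 5 months, 0.20 to 9.82 FPKM at 15 months and 2.31 to 25.6 FPKM at 18 months overlapped widely. The pseudoautosomal region is rich in repeats and incompletely assembled, and the level of this locus is uncertain.

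The most even pattern was the near absence of some loci at 15 months. In 10 loci every one of the 16 libraries at 15 months was under 0.5 FPKM while the medians at 5 and at 18 months were at least 1 FPKM. The same rule applied to 5 months and to 18 months found 0 loci each. The set was picked by its values, so no test of the set is given. They are Gm13304, Gm27177, a locus that joins Gm10601 with 3 other names, a locus that joins LOC101055676 and LOC100041599, and 6 loci without a symbol, and 9 of the 10 are among the 40, Gm27177 being the exception; other than Gm13304 these names were chosen after their values were seen. One without a symbol, MSTRG.24886, had lowest, median and highest values of 2.78, 4.80 and 6.09 FPKM at 5 months, 0.0077, 0.026 and 0.045 FPKM at 15 months, and 0.059, 4.23 and 7.44 FPKM at 18 months. No library at 15 months reached a value seen at another age. In the fit across all loci, whose calls chose it as one of the 40, the difference was -2.30 ± 0.16 (adjusted p = 2.4e-13).

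Summed over the 10 loci, libraries at 5 months held 15.2 to 57.6 FPKM (median 33.1), those at 15 months 0.14 to 0.79 FPKM (median 0.51) and those at 18 months 1.18 to 66.1 FPKM (median 24.9). The lowest values at 18 months were those of 18M-CD 3 with 1.18 FPKM and 18M-MR 1 with 2.46 FPKM, and the next lowest was 13.3 FPKM. In 18M-CD 3 all 10 loci were under 0.5 FPKM, and in 18M-MR 1 8 of 10 were. Over the 22 lower loci of the 40, 18M-CD 3 was on the 15-month side at 21 and 18M-MR 1 at 18. Whether these mice share an origin with those of 15 months, or were exchanged with them, was not tested. Over all loci, 18M-MR 1 had 967 at 0, the most of any library. Loci without a symbol held 9.50% of its FPKM sum. In 18M-CD 3 these figures were 564 and 5.97%, beside 18-month medians of 648 and 5.985%. The part of RNA quality in the levels of both libraries was not tested. Without both libraries 55 loci left and returned, 29 higher and 26 lower, 39 of the 40 among them, and the 15-month contrast gave 357 loci, 253 higher and 104 lower. As the libraries were picked by these loci, the larger counts are no support for them.

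**Figure D3:**
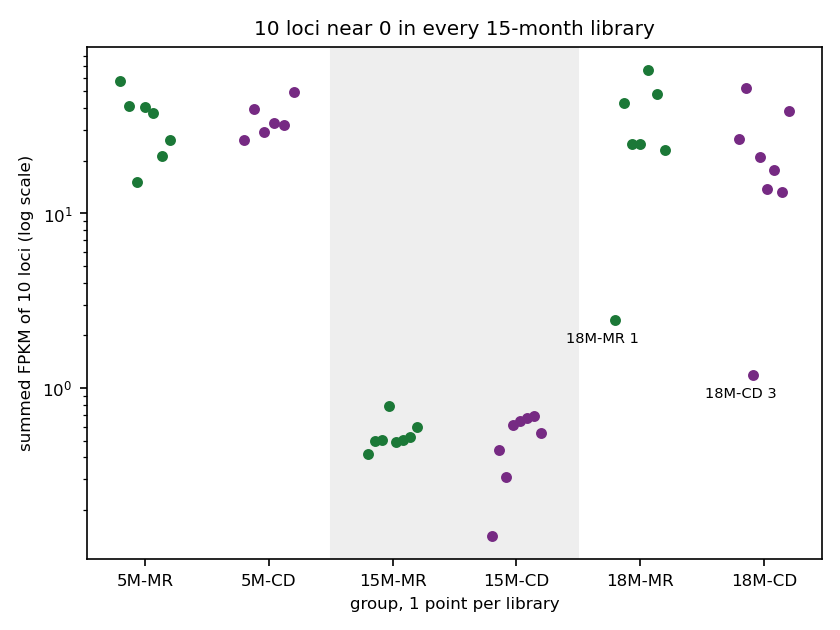
Summed FPKM of the 10 loci near 0 in every 15-month library (vertical axis, log scale), with 1 point for each library in 6 groups, green for MR and purple for CD, the 15-month groups shaded. All 16 libraries of 15 months lie under 0.8 FPKM, and 18M-CD 3 and 18M-MR 1 lie well below the other 18-month libraries.

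Genes that newly passed without these libraries, chosen here after their values were seen, included Npy and the merged loci Entpd4/Gm21685, a nucleotide-hydrolysing enzyme of the Golgi and lysosomes, and Serpina3g/Serpina3n, serine protease inhibitors raised in reactive astrocytes. Entpd4/Gm21685 was lower by -0.66 and Serpina3g/Serpina3n higher by 0.55 in that fit. Their larger adjusted p of the pairs was 0.0075 and 0.049, against 0.066 and 0.056 in the fit of all libraries.

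**Figure D4:**
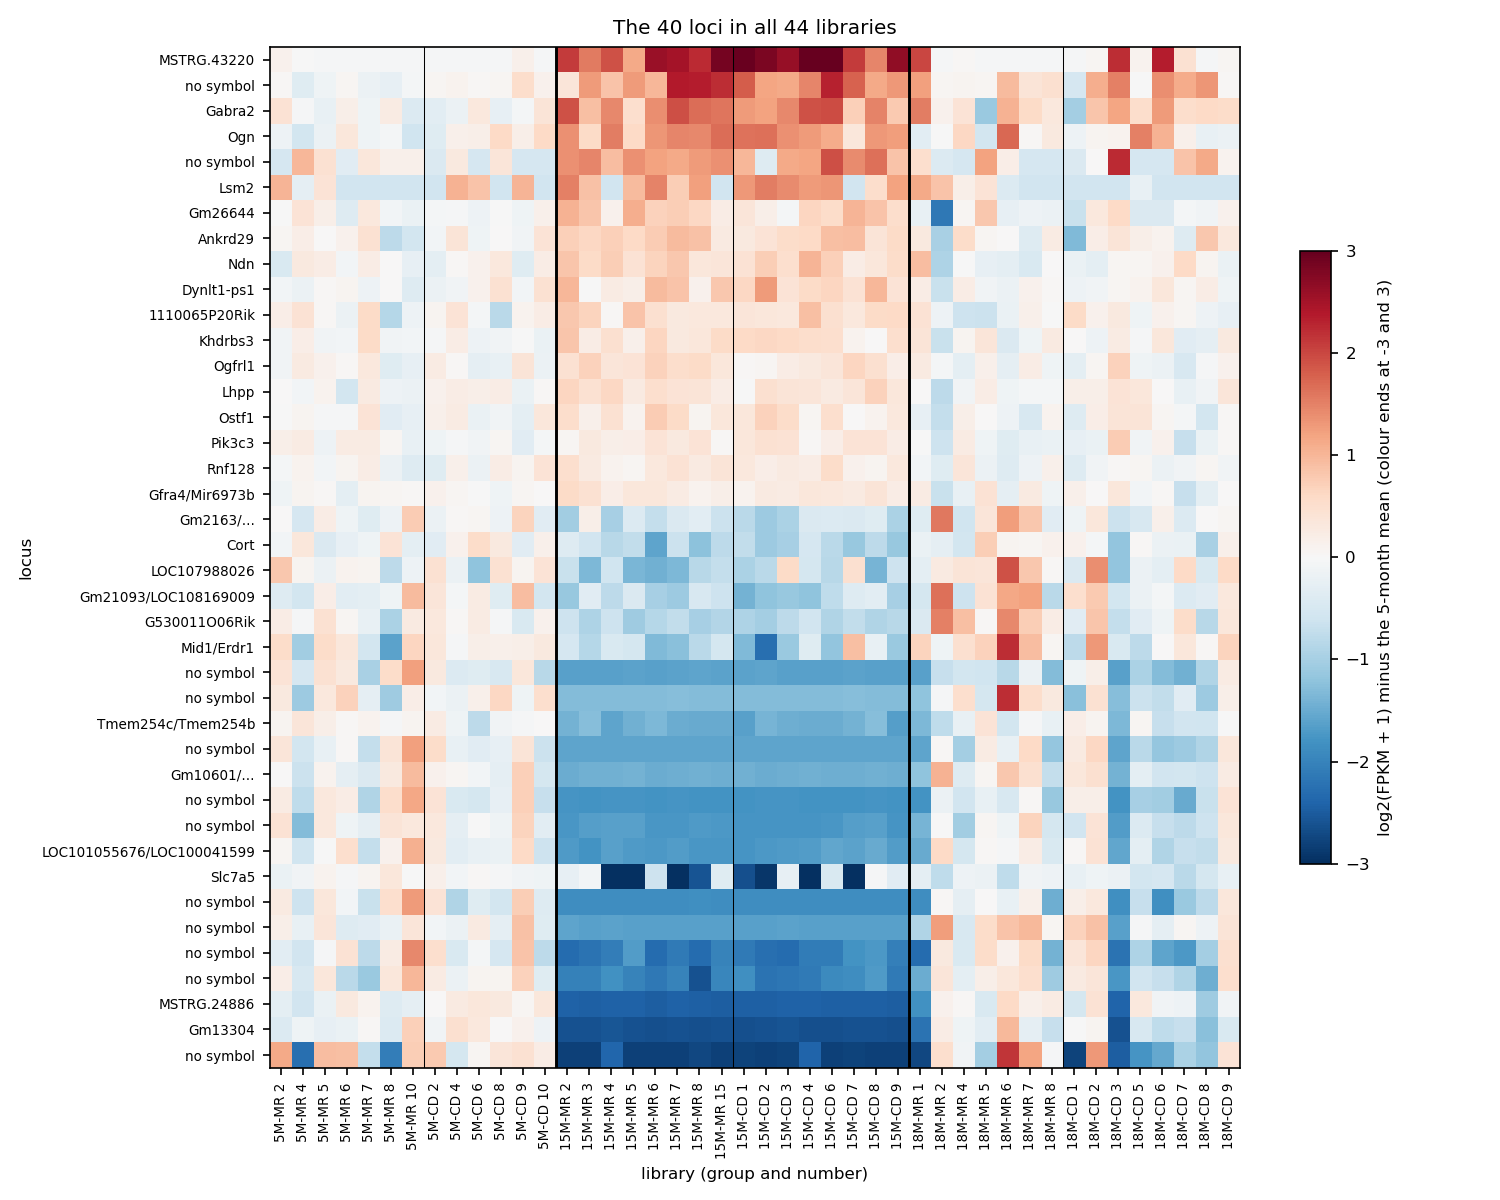
The 40 loci (rows, ordered by difference) in all 44 libraries (columns, by group), coloured by log2(FPKM + 1) minus the mean of the 5-month libraries, red for higher and blue for lower, with colours ending at -3 and 3. The 16 libraries at 15 months form one block in both diets, and the columns of 18M-CD 3 and 18M-MR 1 are blue at most of the lower loci.

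The pattern was then compared between diets. Each of the 40 loci had the same sign in MR and in CD, against 66.1% of all loci, which follows in large part from their choice by the average of both diets. In MR alone 74 loci passed the 15-month contrast (0.569%), 41 higher and 33 lower, and 28 of the 40 were among them. After quantile normalization the MR count was 88, 38 higher and 50 lower, and without 18M-MR 1 it was 200. In CD alone 22 loci passed (0.169%), 4 higher and 18 lower, and 18 of the 40 were among them. At an unadjusted p under 0.05 the CD share was 5.03%. The difference between diets passed at 0 loci in limma (0%), with 268 at an unadjusted p under 0.05 (2.06%), and at 1 locus with the sample number as a block. Gabra2 rose by 1.21 in MR and by 1.08 in CD, and the difference between diets was 0.14 (unadjusted p = 0.69). The smallest p for a difference between diets belonged to Fkbp5, a co-chaperone of the glucocorticoid receptor that hormone signalling induces, with -1.18 in MR and 0.99 in CD (adjusted p = 0.82). It was followed by Mettl1, a tRNA methyltransferase, Arntl, the clock factor BMAL1, Trmt10b, another tRNA methyltransferase, and Chn1, the Rac GTPase-activating protein chimaerin 1, with adjusted p of 1.0 each.

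Lane was added as a factor to see how much of the pattern held beside it. Lanes 1 and 2 were linked to lanes 3 and 4 only where a group spanned both. Each such link had 1 library on one side: of 5M-CD in lane 4, of 18M-CD in lane 3 and of 18M-MR in lane 1. The values with lane as a factor therefore rest on few mice. All 40 loci kept their sign, 26 of the 40 had a difference at least as large as without lane, and 3 had one less than 50% as large, Ogfrl1, Gfra4/Mir6973b and Gm26644. Standard errors grew, and 13 of the 40 passed the 15-month contrast and 8 passed both pairs. Of these 8, 7 were lower and 1 was higher, MSTRG.43220, which has no symbol. Across all loci 16 passed the 15-month contrast with lane, 2 higher and 14 lower, and 9 left and returned. Tmem254c/Tmem254b gave -1.51 ± 0.22 (adjusted p = 0.00044), Gm13304 -2.30 ± 0.36 (adjusted p = 0.00065) and MSTRG.24886 -2.24 ± 0.34 (adjusted p = 0.00044). Gabra2 gave 1.26 ± 0.34 (adjusted p = 0.13), Ndn 0.79 ± 0.19 (adjusted p = 0.096), Ogn 1.38 ± 0.32 (adjusted p = 0.070) and Cort -0.79 ± 0.23 (adjusted p = 0.17). Ogfrl1 gave 0.12 ± 0.15 (adjusted p = 0.80), Khdrbs3 0.35 ± 0.15 (adjusted p = 0.27) and Lhpp 0.25 ± 0.15 (adjusted p = 0.44). Pik3c3 gave 0.27 ± 0.17 (adjusted p = 0.45), Rnf128 0.30 ± 0.14 (adjusted p = 0.30) and Ankrd29 0.37 ± 0.26 (adjusted p = 0.53). For Slc7a5 the difference was -1.82 ± 0.59 (adjusted p = 0.18).

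Values within single lanes are given as a description, since the 40 loci were chosen from differences that include these libraries and their signs are in large part fixed by that choice. In lane 3, where 5 libraries of 15M-CD stood beside 6 of 18M-MR and 1 of 18M-CD, all 40 loci had the sign of the pooled result, against 60.2% of all loci, and 1 of the 40 passed, among 2 over all loci (0.0154%). Of the 7 libraries at 18 months in that lane, 1 shares the diet of those at 15 months. In lane 4, 8 libraries of 15M-MR and 3 of 15M-CD stood beside 1 library of 5M-CD, 39 of the 40 loci had the same sign, Lsm2 being the exception, against 62.4% of all loci. There 16 of the 40 passed, among 89 over all loci (0.684%), with the lone 5-month library assumed to vary like the others, so these calls rest on 1 mouse of that age. Gm13304 differed by -2.18 in lane 3 and by -2.75 in lane 4, and Gabra2 by 1.08 in lane 3 and by 1.36 in lane 4. Lanes 1 and 2 held no library of 15 months and gave no value.

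**Figure D5:**
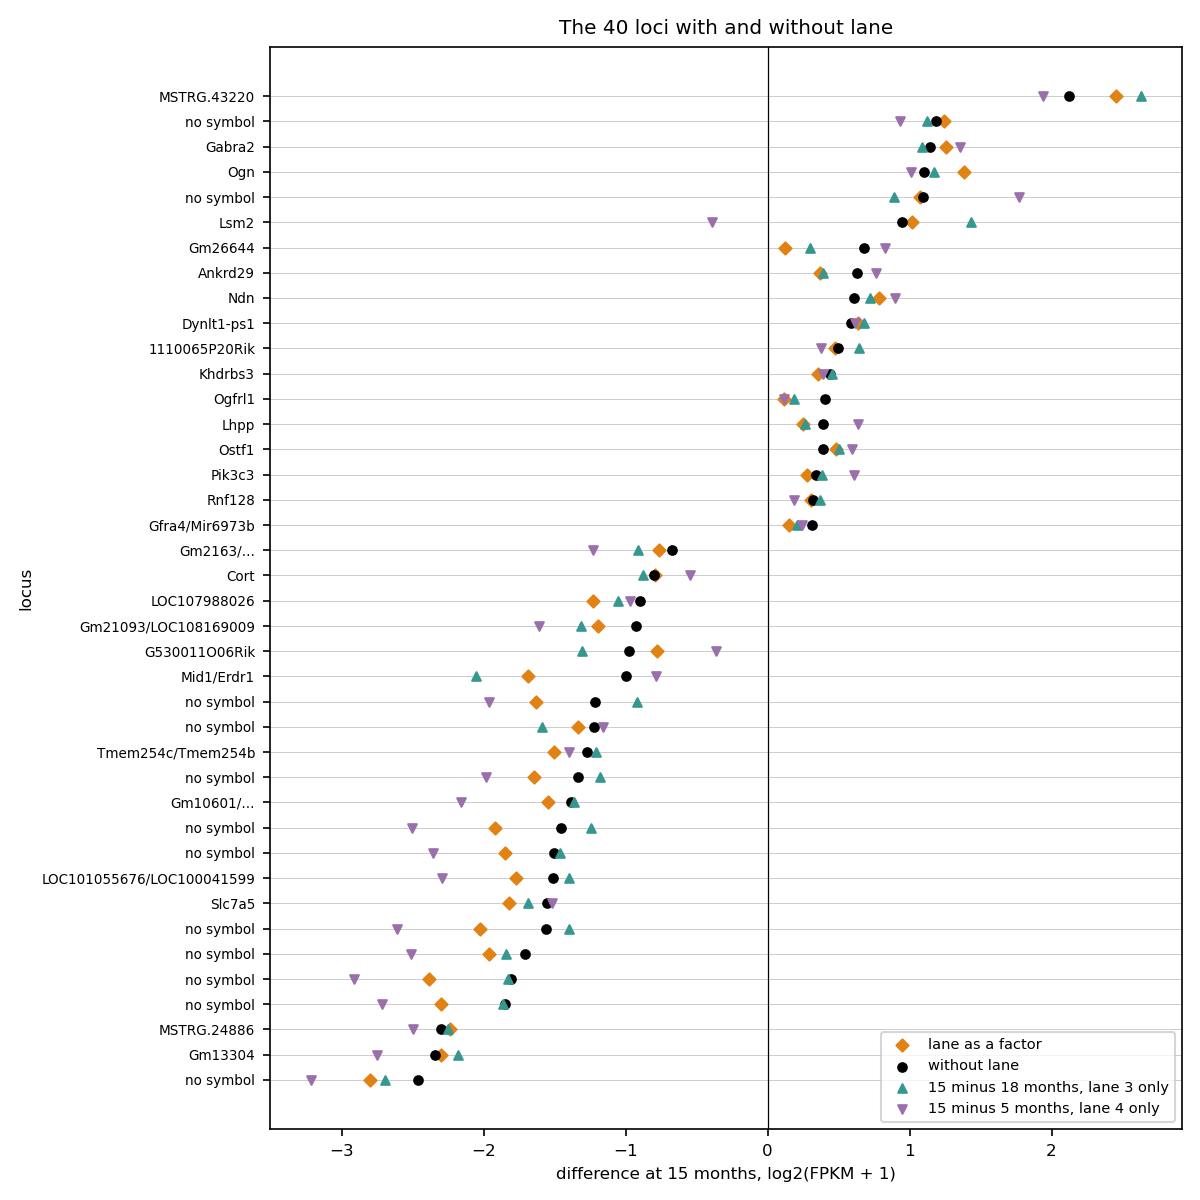
Difference at 15 months in log2(FPKM + 1) (horizontal axis) at the 40 loci, against the mean of 5 and 18 months without lane (black circles) and with lane as a factor (orange diamonds), and within lane 3 against 18 months and lane 4 against 5 months (triangles). With lane as a factor the points stay on the same side of 0 at all 40 loci, and lie closest to 0 for Ogfrl1, Gm26644 and Gfra4/Mir6973b.

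Loci known to vary between inbred strains or substrains were read as a list of 18 genes, 10 of them tested, which was assembled with earlier results of these data known. In it 3 passed the 15-month contrast (1.76% of all loci), all higher (1.15% of all loci), Gabra2, Nnt and Lztfl1 (a regulator of protein traffic to cilia), and 0 were lower, with a median difference of 0.08. Nnt, which couples the proton gradient to NADPH in mitochondria, had lowest, median and highest values of 2.25, 3.27 and 3.72 FPKM at 5 months, 1.12, 5.61 and 7.06 FPKM at 15 months, and 1.76, 3.67 and 5.96 FPKM at 18 months. It rose by 0.48 ± 0.11 (adjusted p = 0.011), passed against 5 months and missed the threshold against 18 months (adjusted p = 0.15). Lztfl1 rose by 0.71 ± 0.14 and differed by 0.25 from 18 months (adjusted p = 0.52), and Wdfy1, Ide, Cyfip2, Pttg1, Glo1 and Pdhx had differences between -0.09 (Ide) and 0.16 (Wdfy1). Tmem254a, the remaining member tested, had a difference of -0.70 ± 0.27 (adjusted p = 0.17). The joined locus Tmem254c/Tmem254b, with a difference of -1.27 ± 0.11, could not enter the list, which was matched to loci with 1 symbol. With lane as a factor 0 of the 10 passed, with larger standard errors beside differences of 1.26 ± 0.34 for Gabra2, 0.55 ± 0.21 for Nnt and 1.06 ± 0.28 for Lztfl1. Gene levels hold no genotypes, so the part of strain or substrain background in the 40 loci was not tested.

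Genes that mark activity and cell types were set beside these loci, in a contrast that 1.15% of all loci passed as higher and 0.615% as lower. Of 18 immediate early genes, transcription factors and effectors that neurons switch on within minutes of firing, 7 passed the 15-month contrast, all lower, with a list median of -0.18 beside 0.05 over all loci. Fos fell by 0.49, Egr1 by 0.68, Nr4a1 by 0.58 and Egr4 by 0.51 on the log2 scale. None of the 18 returned by the rule used here. At 15 months 10 were lower than at 5 months (6.93% of all loci). At 18 months 11 were lower than at 5 months (17.1% of all loci). Fos had medians of 7.604, 2.94 and 3.44 FPKM at 5, 15 and 18 months, and the 15-minus-18 difference was -0.0025 (adjusted p = 0.99). Of 13 markers of homeostatic microglia 2 rose, Olfml3 by 0.55 ± 0.08 and Tmem119 by 0.33 ± 0.08, and both also stood above the 5-month level at 18 months. The 13 markers summed to 148.2 to 284.4 FPKM at 15 months, against 136.7 to 204.3 at 5 months and 149.0 to 332.0 at 18 months. Of 76 nuclear subunits of oxidative phosphorylation 4 rose (Atp5j2, Cox8a, Uqcr11 and Ndufc1, by 0.34 to 0.36), and 0 were among the 40. The count was 9 without 18M-MR 1 and 18M-CD 3, and 7 after quantile normalization. Cox8a was not among those 7 (0.24 ± 0.07, adjusted p = 0.064). With lane as a factor 0 members of these lists passed. The differences were then 0.56 ± 0.16 for Olfml3 and 0.33 ± 0.15 for Tmem119, -0.33 ± 0.17 for Fos, -0.36 ± 0.24 for Egr1, -0.54 ± 0.23 for Nr4a1 and -0.49 ± 0.22 for Egr4, and from 0.49 to 0.64 for the 4 oxidative phosphorylation genes.

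Single members of other lists passed: Rbm3, a cold-inducible RNA-binding protein, fell by 0.50, and Cux1, a transcription factor of upper-layer cortical neurons, fell by 0.39. Rbm3 was also lower at 18 than at 5 months. With lane as a factor neither passed, with differences of -0.32 ± 0.22 for Rbm3 (adjusted p = 0.53) and -0.30 ± 0.19 for Cux1 (adjusted p = 0.47). Of 72 cytosolic ribosomal proteins 0 passed in the fit of all libraries and 1 after quantile normalization. The median of their differences was 0.13 beside 0.05 over all loci, and 0.07 beside 0.01 after quantile normalization. None returned by the rule used here: 30 were higher at 15 than at 5 months (12.7% of all loci), and 37 were higher at 18 than at 5 months (18.8% of all loci). Lists of myelin, astrocytes, dentate granule cells, CA pyramidal cells, choroid plexus, endothelium, circadian clock and glucocorticoid-induced genes had 0 members past the contrast by limma in either direction in the fit of all libraries. One clock gene was lower after quantile normalization, and 1 myelin gene was higher and 1 astrocyte gene lower without 18M-MR 1 and 18M-CD 3. The medians of these lists in the fit of all libraries lay between -0.21 and 0.12.

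Measures of RNA quality did not pass between 15 months and the mean of the other ages, and the single pairs of ages were not tested. The mean of each measure given below was higher at 15 than at 5 months and lower than at 18 months. These gaps offset each other in that contrast, so it does not show that quality was alike at 15 and 5 months. The share of the FPKM sum in loci without a symbol was 6.07% ± 1.31 at 15 months (SD, n = 16), against 4.78% ± 1.10 at 5 months (n = 13) and 6.88% ± 2.25 at 18 months (n = 15), with an adjusted p of 0.74 in a permutation test within diet. The number of loci at 0 was 651.1 ± 64.3 at 15 months, against 536.4 ± 37.8 at 5 months and 678.8 ± 121.9 at 18 months (SD; adjusted p = 0.38, permutation test). Loci that hold the mitochondrial ribosomal RNA genes took 6.90% ± 1.10 of the sum at 15 months, against 4.91% ± 1.47 at 5 months and 7.38% ± 2.91 at 18 months (SD; adjusted p = 0.40, permutation test). With the first of these shares as a covariate 68 loci left and returned, 38 of the 40 among them. Without the 6 libraries in which that share was over 8%, 29 loci left and returned. Of the 40, 27 were among these, 8 higher and 19 lower.

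The loci whose levels ran most like Gabra2 over the 44 libraries were Ogn (Pearson r = 0.74), Fabp7 (0.72), Syce2 (0.70), Dynlt1-ps1 (0.67) and Lamtor4 (0.67), given as a description over libraries that share age groups and lanes. Fabp7, the fatty acid-binding protein of radial glia and astrocytes, had medians of 9.98, 20.4 and 13.7 FPKM at 5, 15 and 18 months. It rose by 0.63 ± 0.14 (adjusted p = 0.0085) and missed the 15-against-18 threshold (adjusted p = 0.23). Lamtor4, a subunit of the lysosomal Ragulator complex, rose by 0.31 ± 0.07 (adjusted p = 0.0059), and Syce2, a protein of the meiotic synaptonemal complex, differed by 0.33 ± 0.13 (adjusted p = 0.16).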

How the data were processed

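The 44 libraries were grouped by the age and diet in their labels. FPKM values of 13218 loci were deposited by the authors in 1 table, with no further scaling named. Per the submitters' processing notes the tools were Trimmomatic 0.38, HISAT2 (version not given in the sources used here) and StringTie 1.3.4d on GRCm38.p6. Low values showed no whole-read steps, so depth is unknown and neither counting errors nor floors can be given.

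The filter asked for 1 FPKM or more in 6 or more libraries, the size of the smallest group, and left 13009 loci and took out 209. limma 3.58.1 in R 4.3.3 was run on log2(FPKM + 1) with a separate mean per group (6), a trend on intensity and 38 residual degrees of freedom. The contrasts were 15 months against the mean of 5 and 18 months, over both diets and in each, their difference between diets, and each pair of ages. P-values are 2-sided, adjusted by Benjamini-Hochberg over all loci, with 0.05 as threshold. RNA quality measures were tested by 100000 permutations of ages within diet, adjusted over 5 measures (Python 3.11.15, NumPy 2.4.6, pandas 2.3.3). The script was tested on simulated data.

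Members and gene lists were chosen with earlier results of these data known. Named genes are, of the loci that passed both pairs, up to 15 higher and 15 lower by the larger adjusted p, with at most 2 in each direction of those with a predicted name or none, and further list members past the contrast (up to 4 a list), all tested strain-variable and GABA-A receptor loci, 5 genes by the difference between diets and 5 most like Gabra2. Some loci that this rule names are not reported here. Lists were matched to loci with 1 symbol. Where StringTie joined genes in 1 locus, their symbols are separated by slashes. Gene positions were taken from GENCODE M21 (GRCm38), promoters from RefSeq (GRCm38.p6), and figures were drawn with matplotlib 3.10.9. Alternatives tried were quantile normalization, a filter at 5 FPKM or none, 0.1 as the pseudocount, lane as a factor, the sample number as a block, array weights, no trend, the share without a symbol as a covariate, fewer libraries, additive age and diet, other weights and single lanes. Leaving out 18M-MR 1 and 18M-CD 3 was added after seeing the data. Nothing in the labels says that libraries of a group were other than separate mice.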

Additional observations from a re-analysis of the deposited data

Results flagged for a closer look

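Among 132 sets of values of a named locus in 1 group, 12 had a library far from the rest of its group (Dixon's test at the 95% level), where chance gives about 1 in 20. Of the higher loci, Ndn was 125.0 FPKM in 18M-CD 7, Ogn 1.45 FPKM in 15M-CD 7, Gabra2 1.94 FPKM in 18M-CD 1, Lhpp 4.37 FPKM in 18M-MR 2, Lsm2 0.286 FPKM in 18M-CD 5 where all others of its group were listed at 0, and Gm26644 0.527 FPKM in 18M-MR 2. MSTRG.43220 was 0.119 FPKM in 5M-MR 2, 0.138 FPKM in 5M-CD 9 and 3.11 FPKM in 18M-MR 1, where the others of that group reached at most 0.049 FPKM. Of the lower loci, Tmem254c/Tmem254b was 5.89 FPKM in 5M-CD 6, and Gm13304 was 9.37 FPKM in 5M-MR 10 and 0.0595 FPKM in 15M-MR 4.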

How the results depend on the processing

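Counts are given for the 15-month contrast and for loci that leave and return, against 229 and 40 in all libraries. Lane as a factor gave 16 and 9, the 5 FPKM filter 164 and 21 (23 of the 40 were tested, 21 passed again), array weights 1232 and 124, and the share without a symbol as a covariate 1102 and 68. Leaving out the 6 libraries in which loci without a symbol held over 8% of the FPKM sum gave 529 and 29, and leaving out 18M-MR 1 and 18M-CD 3 gave 357 and 55. Libraries weighted equally gave 124 in the contrast, and adjustment over the larger of both p-values gave 26 that leave and return. The sample number as a replicate block gave 118 and 23. Numbers did not pair libraries: of 81 same-number pairs across groups 14 correlated over 0.1, and 4 of 44 libraries correlated best with their own number. Pseudocount 0.1 (37), no filter (40), quantile normalization (39), no trend (41) and additive age and diet (43) stayed within 1.5 times of 40.

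In MR, against 74, the same settings gave 9 with lane, 28 at 5 FPKM, 39 with the replicate block, 339 with array weights, 636 with the covariate, 742 without the libraries over 8% and 196 without 18M-MR 1 and 18M-CD 3. In CD, against 22, they gave 9 with lane, 12 at 5 FPKM, 13 with the replicate block and 69 with array weights. The difference between diets passed at 1 locus with the replicate block and at 0 elsewhere, 1 fit without a library aside.

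Between 15 and 5 months, against 2551, lane gave 193, 5 FPKM 1619, the replicate block 1074, array weights 4537 and lane 4 alone 89. Between 15 and 18 months, against 52, lane gave 15, 5 FPKM 27, the replicate block 27, array weights 346, the libraries under 8% 31, both libraries left out 87 and lane 3 alone 2. Between 18 and 5 months, against 4669, 5 FPKM gave 2776, the replicate block 2265, the covariate 160 and the libraries under 8% 625. The 5 FPKM filter tests fewer loci, settings that leave out libraries rest on fewer samples, and for the rest the cause was not tested.

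Leaving out each library in turn gave 162 to 371 in the 15-month contrast, 32 to 51 loci that leave and return, 51 to 200 in MR, 16 to 25 in CD, 0 to 1 for the difference between diets, 1907 to 3037 between 15 and 5 months, 37 to 119 between 15 and 18 months and 3677 to 5421 between 18 and 5 months. Under the alternatives for single loci, 60 values lost the call, 6 gained it, and 0 values of loci called in the main fit reversed. The other 835 were counted as unchanged. For loci not called in the main fit, these include any change of sign. Loci under about 1 FPKM are the least certain, since no depth is known.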
